A study of Mus musculus with 4 samples.

Results

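Horizontal basal cells are the reserve stem cells of the main olfactory epithelium (MOE), and 6 genes used as their markers, *Krt5*, *Krt14*, *Krt15*, *Trp63*, *Icam1*, and *Itga6*, were followed across 4 RNA-seq libraries. They are 6 of the 24421 genes with deposited values. They were chosen by name and by their measured change between reporter-positive and reporter-negative cells, which earlier results of these libraries gave as opposite in a GFP line and a tdTomato line, so the directions given here are a description and not a test. *Krt5*, *Krt14*, *Krt15*, *Trp63*, and *Icam1* had opposite signs of change in the 2 lines, while *Itga6* was higher in the reporter-positive cells of both, against the description by which it was chosen.

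The libraries came from cells of the MOE sorted by fluorescence-activated cell sorting (FACS), with 1 library for each group. GFP-positive and GFP-negative cells were from mice of the TAAR enhancer 1-GFP transgenic line, and the cells with and without tdTomato from mice of the TAAR enhancer 2-tdTomato transgenic line. The strain label is C57BL/6 for all 4 groups, while the published reporting summary gives mixed backgrounds for the mouse lines of the study. Each transgene is a PiggyBac insertion in which an enhancer of trace amine-associated receptor (*Taar*) genes stands before the Hsp68 minimal promoter and the reporter, and 1 founder line of each was kept. The mice are labelled adult, while postnatal ages of 14 days for the GFP line and 14 to 21 days for the tdTomato line are given with the published methods. No label gives the number of mice behind a library. Between the lines, the enhancer, reporter, founder, age range, and sorting laser differ together and cannot be told apart.

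Horizontal basal cells lie flat on the basal lamina, mostly quiescent, and can rebuild neurons and supporting cells after injury. Like the basal cells of skin and airway, they build intermediate filaments from the type II keratin *Krt5* paired with the type I keratins *Krt14* and *Krt15*. They depend on p63, the transcription factor encoded by *Trp63*, which holds them in the resting state. They attach to laminin through integrins with the alpha 6 chain *Itga6*, and carry the adhesion molecule *Icam1* on their surface. None of these genes belongs to horizontal basal cells alone. The keratins and *Trp63* are also active in basal cells of respiratory and squamous epithelium and in gland myoepithelial cells, and *Icam1* and *Itga6* are also found on endothelial cells.

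The members lie on 5 chromosomes of GRCm38, the assembly also called mm10. *Krt14* (ENSMUSG00000045545.8) runs from 100203162 to 100207548 on the minus strand of chromosome 11, and *Krt15* (ENSMUSG00000054146.8) from 100131758 to 100135928 on the same strand, with 67233 bases between them. *Krt5* is on chromosome 15 from 101707070 to 101712898, *Trp63* on chromosome 16 from 25683763 to 25892102, *Icam1* on chromosome 9 from 21015985 to 21028817, and *Itga6* on chromosome 2 from 71745616 to 71858416. All 6 are protein-coding genes in the GENCODE M21 annotation.

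Because keratins are a family of close paralogs, the reference transcripts were searched for windows of 50 bases that a member shares with another gene. *Krt14* shares 13.9% of its windows, mostly with *Krt16* (188 windows) and *Krt17* (55 windows), and *Krt5* shares 12.2%, mostly with *Krt6a* (150 windows). *Krt15* shares 0.64% of its windows and *Trp63* shares none, so *Krt15* and *Trp63* give values that rest almost wholly on their own sequence. *Krt16* was listed at 0 TPM in all 4 libraries, and *Krt6a* at 0 except in GFP-positive cells, where it was at 4.51 TPM. *Icam1* shares 13.1% of its windows, of which 462 windows belong to *Gm47079*, an antisense gene that overlaps an *Icam1* exon. *Gm47079* is not among the deposited genes, and without a stated strand setting its reads cannot be told apart from those of *Icam1*. The following stretches of coding sequence, from the GENCODE M21 transcripts and written 5′ to 3′, show how well the type I keratins can be separated. In the first pair, the 75 bases around the longest run shared by *Krt14* and *Krt15* are aligned, and capitals mark the 5 positions at which they differ.
*Krt14*, coding bases 663 to 737: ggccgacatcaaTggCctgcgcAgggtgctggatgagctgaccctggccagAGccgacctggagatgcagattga
*Krt15*, coding bases 597 to 671: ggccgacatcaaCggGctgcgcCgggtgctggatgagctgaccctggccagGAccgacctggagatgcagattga
The next stretch holds in capitals the longest coding run that *Krt14* shares with *Krt17*, which is 71 bases, with 10 bases on each side.
*Krt14*, coding bases 1206 to 1296: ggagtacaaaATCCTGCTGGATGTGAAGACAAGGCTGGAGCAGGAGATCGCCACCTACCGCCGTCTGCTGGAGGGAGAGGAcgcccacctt
The longest run shared with *Krt16* is 134 bases, and that between *Krt14* and *Krt15* is 28 bases.

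Promoters were inspected because 4 of the members moved together. RefSeq windows for GRCm38.p6 were on hand for *Krt5*, *Icam1*, and *Krt14*. The *Krt14* window starts 1518 bases inside the GENCODE gene and is not printed. The 250 bases before the RefSeq start of *Krt5* and *Icam1* follow, on the strand of each gene. Capitals mark matches to the 10-base p53-family motif, which p63 also binds, and to GGAAATTCC, a sequence of the kind bound by NF-kB.
*Krt5*, chr15:101712906-101713155, minus strand: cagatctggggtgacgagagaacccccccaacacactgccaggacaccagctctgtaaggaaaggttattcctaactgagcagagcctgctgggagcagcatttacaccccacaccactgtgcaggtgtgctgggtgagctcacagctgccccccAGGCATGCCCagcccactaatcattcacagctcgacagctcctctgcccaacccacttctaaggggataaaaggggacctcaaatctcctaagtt
*Icam1*, chr9:21015690-21015939, plus strand: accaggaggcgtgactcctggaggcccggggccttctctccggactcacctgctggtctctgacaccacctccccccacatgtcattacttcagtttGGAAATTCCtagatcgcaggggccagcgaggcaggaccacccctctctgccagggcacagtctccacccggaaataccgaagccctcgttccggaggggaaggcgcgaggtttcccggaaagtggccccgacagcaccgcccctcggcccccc
Both motifs were searched on both strands. The p53-family motif occurred once in the *Krt5* window, as AGGCATGCCC beginning 95 bases before the start, and in 7.13% of the 32851 windows of the same length. GGAAATTCC occurred in the *Icam1* window, beginning 153 bases before the start, and in 0.286% of all windows. Neither motif occurred in the *Krt14* window, which lies inside the GENCODE gene. These matches describe the letters of the windows and do not show binding.

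Values are TPM, a relative transcript abundance that is scaled for transcript length and set to a total of 1000000 in each library, so levels of different genes can be compared. TPM keeps no record of the number of reads, and with 1 library for each group no difference has a replicate check, no error can be given, and no p-value was calculated. Changes are log2 ratios of TPM + 1, reporter-positive over reporter-negative, and a change is called here at 2-fold. Over the 16917 genes that reached 1 TPM somewhere in the 4 libraries, the median change was -0.81 in the GFP line and -0.16 in the tdTomato line. Of these genes, 13.5% were at least 2-fold higher and 43.1% at least 2-fold lower in GFP-positive cells, and 16.0% were higher and 21.6% lower in tdTomato-positive cells. *Omp*, the marker of mature olfactory sensory neurons (OSNs), was at 9584 and 1108 TPM in GFP-negative and GFP-positive cells, and at 10108 and 4427 TPM in tdTomato-negative and tdTomato-positive cells.

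*Krt5* was at 15.7 TPM in negative and 199.6 TPM in positive cells of the GFP line, and in the tdTomato line at 56.5 TPM in negative and 16.5 TPM in positive cells. The GFP-positive library stood far above the others, and the GFP-negative and tdTomato-positive libraries were at nearly the same level. *Krt5* was thus 12.7-fold higher in GFP-positive than in GFP-negative cells (log2 change 3.58) and 3.43-fold lower in tdTomato-positive than in tdTomato-negative cells (log2 change -1.72). In sorted bulk cells, a lower level from fewer cells of a type and from less RNA per cell cannot be told apart.

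*Krt14*, a partner of *Krt5* in the basal filament, was at 14.9 TPM in negative and 117.7 TPM in positive cells of the GFP line, and in the tdTomato line at 29.4 TPM in negative and 5.55 TPM in positive cells. Its log2 change was 2.90 in the GFP line and -2.21 in the tdTomato line. The tdTomato-positive library was the lowest and the GFP-positive library the highest.

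*Krt15*, the type I keratin often linked to quiescent basal cells, had the widest range of the keratins. It was at 8.81 TPM in negative and 262.1 TPM in positive cells of the GFP line, and in the tdTomato line at 19.5 TPM in negative and 3.99 TPM in positive cells. The GFP-positive library was 29.7-fold above the GFP-negative library (log2 change 4.75), and the tdTomato-positive library was 4.90-fold below the tdTomato-negative library (log2 change -2.04). The order of the members also changed here, since *Krt15* was the highest of the 6 genes in GFP-positive cells and was below *Krt5* and *Krt14* in each of the other libraries.

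*Trp63* encodes the transcription factor of the group and had the lowest levels of the members in every library except tdTomato-positive cells, where *Icam1* was lower. It was at 3.70 TPM in negative and 20.2 TPM in positive cells of the GFP line, and in the tdTomato line at 6.98 TPM in negative and 1.92 TPM in positive cells. The order of the libraries was that of *Krt14* and *Krt15*. Its log2 change was 2.17 in the GFP line and -1.45 in the tdTomato line, and at this level a pseudocount of 1 understates the change, as the TPM ratios were 5.46-fold and 3.63-fold.

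**Figure D1:**
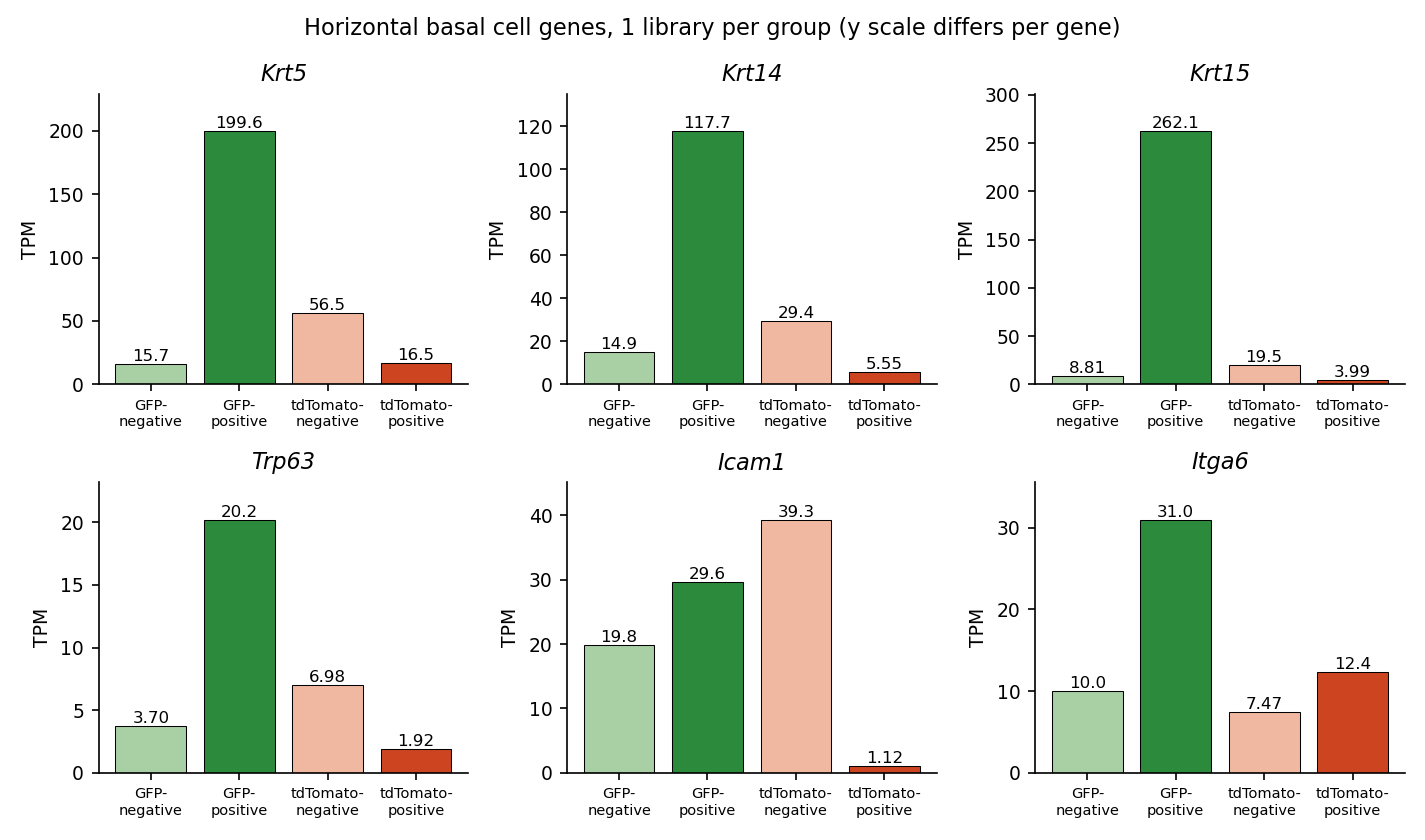
TPM of the 6 horizontal basal cell genes in each of the 4 libraries. Each bar is 1 library, so there are no error bars, and the y axis starts at 0 and differs between genes. The GFP-positive bar is the tallest for every gene except *Icam1*, for which the tdTomato-negative bar (39.3 TPM) is the tallest.

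*Icam1*, which binds the leukocyte integrins, followed another pattern. It was at 19.8 TPM in negative and 29.6 TPM in positive cells of the GFP line, and in the tdTomato line at 39.3 TPM in negative and 1.12 TPM in positive cells. The tdTomato-positive library alone was low, 35.2-fold below the tdTomato-negative library, and the other libraries ran from 19.8 to 39.3 TPM. Its log2 change of -4.25 in the tdTomato line was the most negative of the members, and it rested on the 1.12 TPM of that library, as it was -5.02 with a pseudocount of 0.1 and -2.15 with a pseudocount of 10. The change of 0.56 in the GFP line did not reach 2-fold.

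*Itga6* was at 10.04 TPM in negative and 31.0 TPM in positive cells of the GFP line, and in the tdTomato line at 7.47 TPM in negative and 12.4 TPM in positive cells. Both reporter-positive libraries were above both reporter-negative libraries. Its log2 change was 1.53 in the GFP line and 0.66 in the tdTomato line, the latter below 2-fold. *Icam1* and *Itga6* are the members nearest to a change of sign, *Icam1* on the opposite side in the GFP line and *Itga6* on the same side in the tdTomato line.

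In the GFP line, 5 of the 6 members were at least 2-fold higher in GFP-positive cells, against 13.5% of all genes. In the tdTomato line, 5 of the 6 were at least 2-fold lower in tdTomato-positive cells, against 21.6% of all genes. *Krt5*, *Krt14*, *Krt15*, and *Trp63* passed 2-fold in both lines with opposite signs, as did 226 genes in all (1.34%). The reverse pattern, lower in GFP-positive and higher in tdTomato-positive cells, was shown by 0 of the 6 members and by 1.57% of all genes. These contrasts were used to choose the members, so their counts describe the choice. Relative to the median of all genes, the changes of these 4 genes ran from 2.99 to 5.56 in the GFP line and from -2.05 to -1.28 in the tdTomato line. The differences between the 2 lines were 5.30 for *Krt5*, 5.11 for *Krt14*, 6.79 for *Krt15*, 3.62 for *Trp63*, 4.81 for *Icam1*, and 0.87 for *Itga6*, and were not tested.

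**Figure D2:**
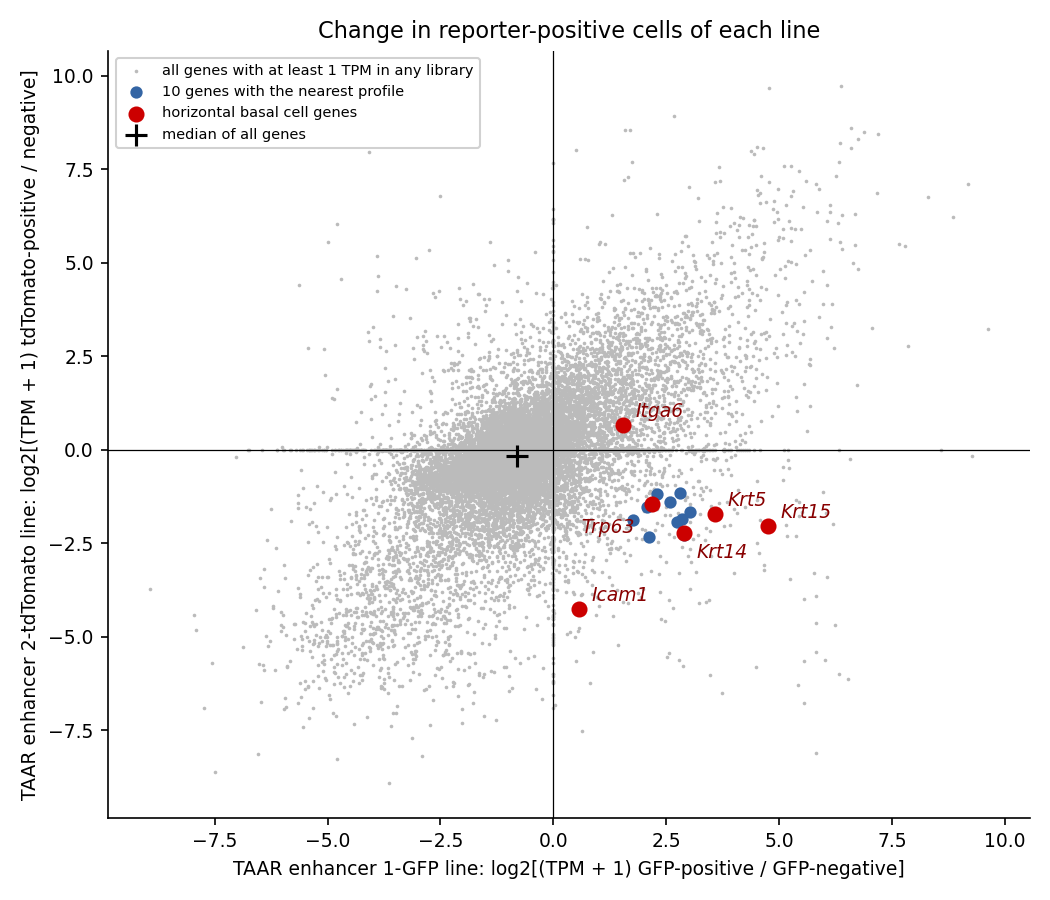
Log2 change of TPM + 1 in the TAAR enhancer 1-GFP line (x axis) and the TAAR enhancer 2-tdTomato line (y axis) for 16917 genes (gray), the 6 horizontal basal cell genes (red), and the 10 genes with the nearest profiles (blue). The cross marks the median of all genes, at -0.81 and -0.16. *Krt5*, *Krt14*, *Krt15*, *Trp63*, and *Icam1* lie in the lower right quadrant, and *Itga6* lies in the upper right quadrant.

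Setting like fractions of the lines side by side shows where the contrast lay. Among reporter-negative cells, 5 of the 6 members were higher in the tdTomato line. *Krt5* (3.59-fold) and *Krt15* (2.22-fold) passed 2-fold on the log2(TPM + 1) scale, and 10.7% of all genes did so. *Icam1* (1.99-fold), *Krt14* (1.97-fold), and *Trp63* (1.89-fold) were below that threshold. Among reporter-positive cells, all 6 members were at least 2-fold higher in the GFP line, with 10.5% of all genes past the same threshold. The TPM ratios of GFP-positive to tdTomato-positive cells were 65.8 for *Krt15*, 26.5 for *Icam1*, 21.2 for *Krt14*, 12.1 for *Krt5*, 10.5 for *Trp63*, and 2.50 for *Itga6*. The summed TPM of the members was 73.0 in GFP-negative, 660.1 in GFP-positive, 159.1 in tdTomato-negative, and 41.5 in tdTomato-positive cells.

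Ratios between genes of the same library do not depend on how that library was scaled. *Trp63* per *Krt5* was 0.235 in GFP-negative, 0.101 in GFP-positive, 0.123 in tdTomato-negative, and 0.117 in tdTomato-positive cells, so that all but the GFP-negative library were nearly equal. *Krt14* per *Krt5* was 0.948, 0.590, 0.520, and 0.337 in the same order of libraries. *Krt15* per *Krt5* was 0.560 in GFP-negative and 1.31 in GFP-positive cells, and 0.346 and 0.242 in tdTomato-negative and tdTomato-positive cells. The GFP-positive library was therefore the only library in which *Krt15* exceeded *Krt5*. *Krt17*, a type I keratin of basal cells that is not a member, kept a *Krt17* to *Krt5* ratio between 0.240 and 0.417 in all 4 libraries.

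The members were also set against keratins of simple epithelium, a comparison chosen after the values were seen. *Krt7*, *Krt8*, *Krt18*, and *Krt19* are made by supporting, gland, and ciliated cells of the nose. *Krt5* per *Krt8* was 0.280 in GFP-negative, 0.339 in GFP-positive, 0.535 in tdTomato-negative, and 0.0324 in tdTomato-positive cells. *Krt14* per *Krt18* was 0.214, 0.153, 0.149, and 0.0118, and *Krt15* per *Krt19* was 0.639, 0.578, 0.531, and 0.0160 in the same order. In the tdTomato line these 3 ratios were 16.5-fold, 12.6-fold, and 33.1-fold lower in tdTomato-positive cells. Over all 12 ratios of *Krt5*, *Krt14*, or *Krt15* to one of the 4 simple-epithelial keratins, 12 were lower in tdTomato-positive cells, by 8.18-fold (*Krt5* per *Krt18*) to 164.8-fold (*Krt14* per *Krt7*). In the GFP line the direction depended on the pair. In GFP-positive cells 5 ratios were higher, up to 2.85-fold for *Krt15* per *Krt8*, and 7 were lower, up to 4.17-fold for *Krt14* per *Krt19*.

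**Figure D3:**
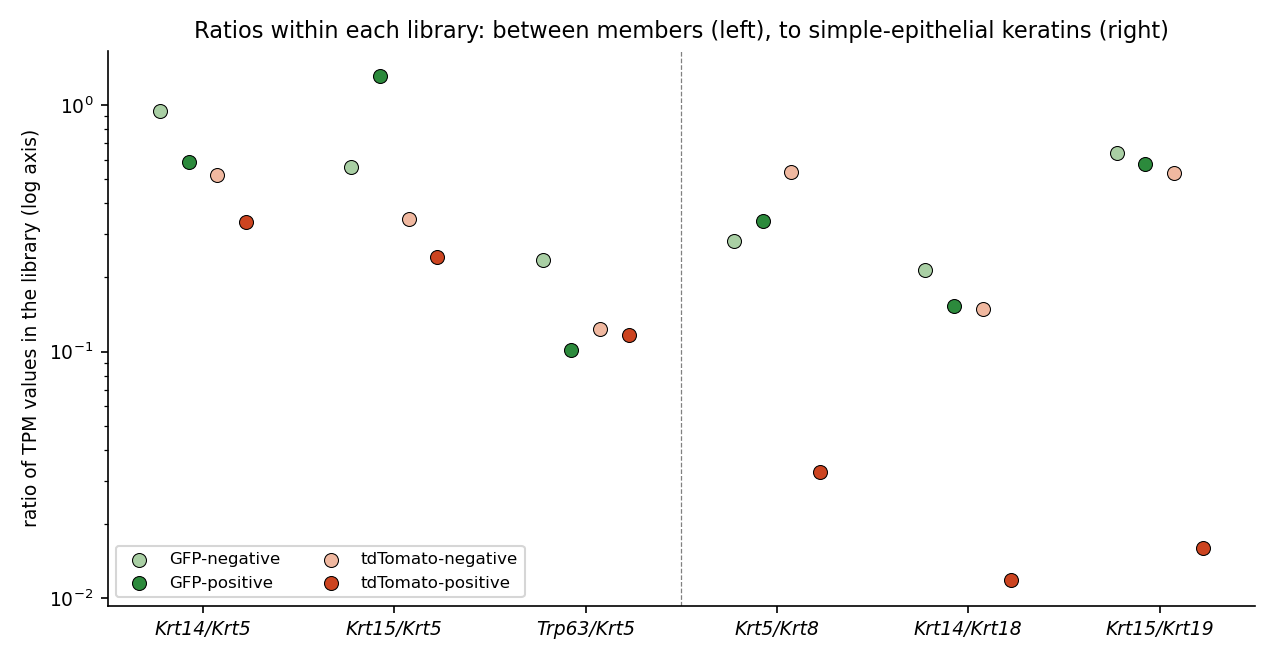
Ratios of TPM values within each library on a log axis, with 1 point for each library. Left of the dashed line are ratios to *Krt5* among the members, and right of it are ratios of basal keratins to simple-epithelial keratins. On the right the tdTomato-positive points lie between 0.0118 and 0.0324, and the other 9 points between 0.149 and 0.639.

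Scaling mattered for the GFP line. Bringing all libraries to an equal mean log2 level of *Krt7*, *Krt8*, *Krt18*, and *Krt19*, an alternative chosen after seeing the data, turned the changes of *Krt5* (-0.44), *Krt14* (-1.11), *Trp63* (-1.50), *Icam1* (-3.38), and *Itga6* (-2.36) in GFP-positive cells below 0, and left *Krt15* at 0.77. It moved the median of all genes by -3.65. Median-ratio scaling moved that median by 0.79 and rescaling to mature OSN markers by 2.77 in the GFP line, and by 0.14 and 0.80 in the tdTomato line. Rescaling without the highest genes moved it by 0.44 in the GFP line. The share of higher genes among all genes called in the GFP line was 23.9% as deposited, 50.1% with median-ratio scaling, 37.6% without the highest genes, 91.0% with the OSN markers, and 3.08% with the keratins. In the tdTomato line it was 42.6% as deposited, 74.8% with the OSN markers, and 5.45% with the keratins. Under every alternative other than the keratin scaling, *Krt5*, *Krt14*, *Krt15*, *Trp63*, and *Icam1* kept opposite signs and *Itga6* did not have them. The 2-fold calls were less stable than the signs. With a pseudocount of 10, *Trp63* lost its opposite call, at -0.51 in the tdTomato line. With the OSN markers, *Krt5* (-0.72) and *Trp63* (-0.59) lost theirs in the tdTomato line and *Icam1* gained one, leaving 3 members. *Icam1* also gained one with median-ratio scaling and without the highest genes.

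**Figure D4:**
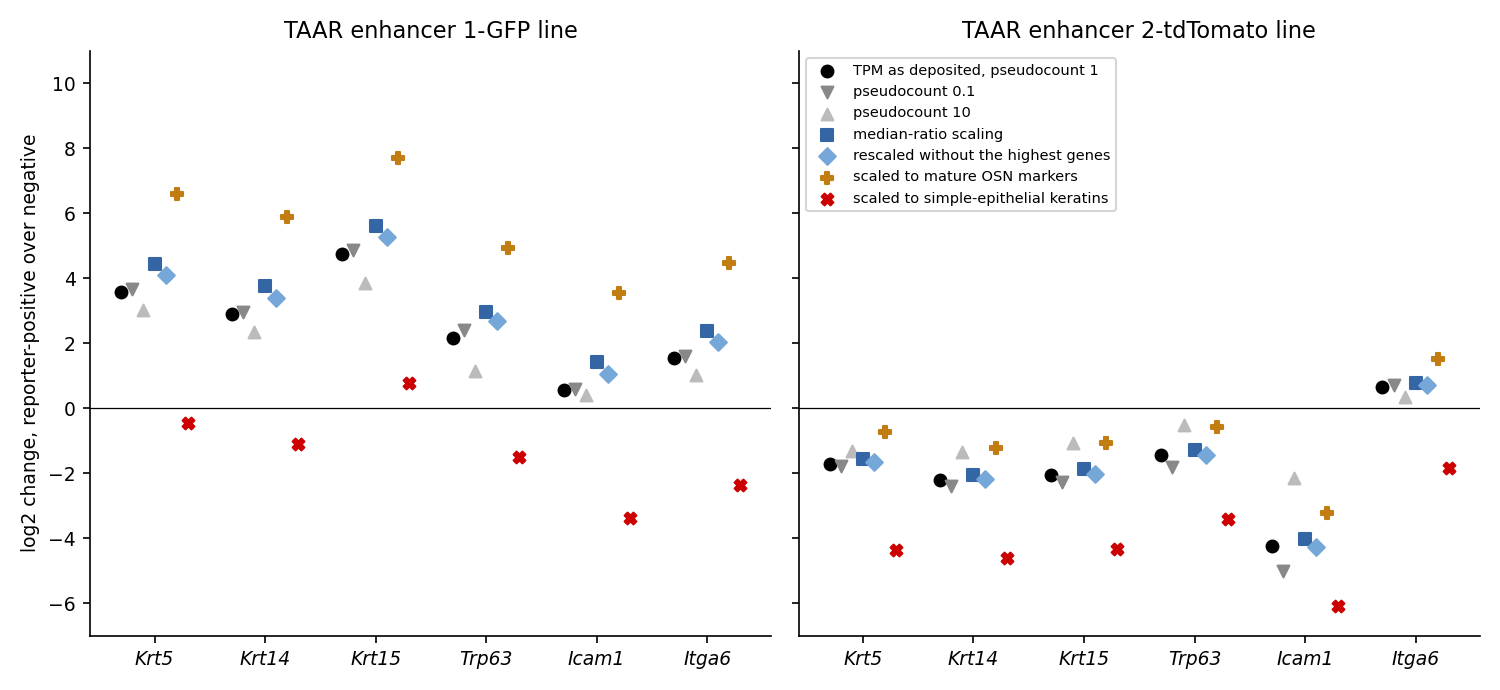
Log2 change of each member in the GFP line (left) and the tdTomato line (right) with TPM as deposited and under 6 alternatives, with 1 point for each setting. In the left panel the points of the keratin scaling lie below 0 for every member except *Krt15* (0.77), and in the right panel all points lie below 0 for every member except *Itga6*.

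Other genes of basal cells in stratified epithelia were described by a list of 18 genes, of which 15 reached 1 TPM in any library. In GFP-positive cells, 13 of the 15 were at least 2-fold higher and 1 was lower, with a median change of 2.27. In tdTomato-positive cells, 2 were higher and 5 lower, with a median of -0.31. *Krt17*, *Pkp1*, *Ngfr*, and *Serpinb5* passed 2-fold with opposite signs, which is 4 of 15 beside 1.34% of all genes. *Krt17* was at 3.77, 67.4, 19.7, and 6.88 TPM in GFP-negative, GFP-positive, tdTomato-negative, and tdTomato-positive cells, which is the order of *Krt14* in those libraries except that GFP-negative cells were the lowest. *Ngfr*, the low-affinity neurotrophin receptor, was at 0.0624, 7.64, 5.55, and 0.729 TPM in the same order.

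The other genes of this list with the highest TPM differed among themselves in the tdTomato line. *Aqp3*, a water and glycerol channel of basal cells, was at 59.4, 627.9, 152.0, and 129.3 TPM in that order. *Perp*, a desmosomal gene and p63 target, was higher in the reporter-positive cells of both lines, at 15.8 and 170.0 TPM in the GFP line and at 33.4 and 68.1 TPM in the tdTomato line. *Sfn*, which encodes an epithelial 14-3-3 protein, was at 39.6, 125.5, 48.8, and 37.7 TPM. *Cd44*, a hyaluronan receptor of basal cells and leukocytes, was lower in the reporter-positive cells of both lines, from 34.5 to 15.6 TPM and from 56.3 to 0.0209 TPM.

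Among 10 genes of hemidesmosomes and laminin-binding adhesion, no gene passed 2-fold with opposite signs. In GFP-positive cells, 5 were higher and 1 was lower, and in tdTomato-positive cells 6 were higher and none was lower. *Itgb4*, the chain that pairs with *Itga6* in hemidesmosomes, was at 4.35 and 26.1 TPM in GFP-negative and GFP-positive cells and at 3.81 and 11.8 TPM in tdTomato-negative and tdTomato-positive cells. *Itga6* and *Itgb4* therefore shared their direction in both lines, and *Itga6* per *Itgb4* was 2.31 and 1.96 in the GFP-negative and tdTomato-negative libraries and 1.18 and 1.05 in the positive ones. *Itgb1*, the more widely used partner, was at 74.1, 110.2, 83.2, and 114.5 TPM. *Cd151*, a tetraspanin bound to alpha 6 integrins, was higher in both lines, with log2 changes of 2.32 and 1.29. *Col17a1*, the hemidesmosomal collagen, was at 2.66 and 24.8 TPM in the GFP line and at 8.33 and 5.05 TPM in the tdTomato line.

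Of the 11 laminin chains, the ligands of these integrins, 10 reached 1 TPM. In GFP-positive cells 6 were higher and 1 was lower, and in tdTomato-positive cells 1 was higher and none was lower. *Lama5* was the gene that was higher in both, from 2.82 to 19.9 TPM and from 5.61 to 58.3 TPM. *Lamb3*, a laminin chain found under basal cells, was at 2.42 and 33.3 TPM in the GFP line and at 4.09 and 4.29 TPM in the tdTomato line.

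The list of p53 family paralogs and p63 partners and targets held 12 genes, of which 11 reached 1 TPM. In GFP-positive cells 7 were higher and 1 was lower, and in tdTomato-positive cells 4 were higher and 3 lower. *Trp73*, the paralog that serves multiciliated cells, was higher in both lines, from 1.73 to 12.9 TPM and from 6.68 to 65.0 TPM. *Trp63* per *Trp73* was 2.13, 1.56, 1.04, and 0.0296 in GFP-negative, GFP-positive, tdTomato-negative, and tdTomato-positive cells. *Ovol1* and *Tfap2c*, transcription factors of stratified epithelium, passed 2-fold with opposite signs, at 3.72 and 4.51 TPM in GFP-positive cells and listed at 0 in GFP-negative and tdTomato-positive cells. Their changes rest on values at 0 and depend on the pseudocount. *Grhl2*, an epithelial regulator, was at 1.39 and 53.3 TPM in the GFP line and at 4.12 and 89.3 TPM in the tdTomato line.

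Notch signaling, which has been linked to the resting state of horizontal basal cells, was described by 9 genes. In GFP-positive cells 4 were at least 2-fold higher and none lower, and in tdTomato-positive cells 2 were higher and 2 lower. *Notch1*, the receptor, was at 10.8, 5.73, 16.8, and 3.83 TPM in the 4 libraries, and *Hes1*, a target, was at 22.1, 69.5, 16.6, and 63.8 TPM. None passed 2-fold with opposite signs. Of 6 genes of activated basal cells after injury, 5 reached 1 TPM, of which 3 were higher and 1 was lower in GFP-positive cells and 4 were higher in tdTomato-positive cells. *Hopx*, a marker of activated cells, was at 24.3, 38.1, 27.8, and 112.8 TPM, and *Sprr1a* at 0.179, 21.5, 3.38, and 4.04 TPM.

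*Icam1* was read beside its relatives and receptors. *Icam2*, an endothelial and leukocyte paralog, and *Itgam* and *Itgb2*, the leukocyte integrin chains that bind *Icam1*, were lower in the reporter-positive cells of both lines, with log2 changes between -4.94 and -3.55 in the GFP line and between -4.88 and -3.27 in the tdTomato line. *Itgal* was lower in the GFP line (-1.80) and at 73.0 and 79.9 TPM in the tdTomato line. Of the 6 leukocyte markers, 5 were lower in both lines and *Lyz2* was not, at 1581 and 2043 TPM in the GFP line and 706.7 and 1707 TPM in the tdTomato line. *Ptprc*, the pan-leukocyte surface protein, was at 178.3 and 3.14 TPM in the GFP line and at 194.0 and 1.42 TPM in the tdTomato line. *Icam1* per *Ptprc* was 0.111 in GFP-negative and 9.42 in GFP-positive cells, and 0.203 and 0.788 in tdTomato-negative and tdTomato-positive cells. Among the 6 endothelial markers, *Pecam1*, which leukocytes also carry, was at 41.2, 1.10, 41.0, and 6.29 TPM. The other 5 together were at 10.3, 0.466, 1.92, and 0.118 TPM, and *Cdh5* was listed at 0 in both reporter-positive libraries. The part of leukocytes and endothelial cells in the *Icam1* values was not tested.

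**Figure D5:**
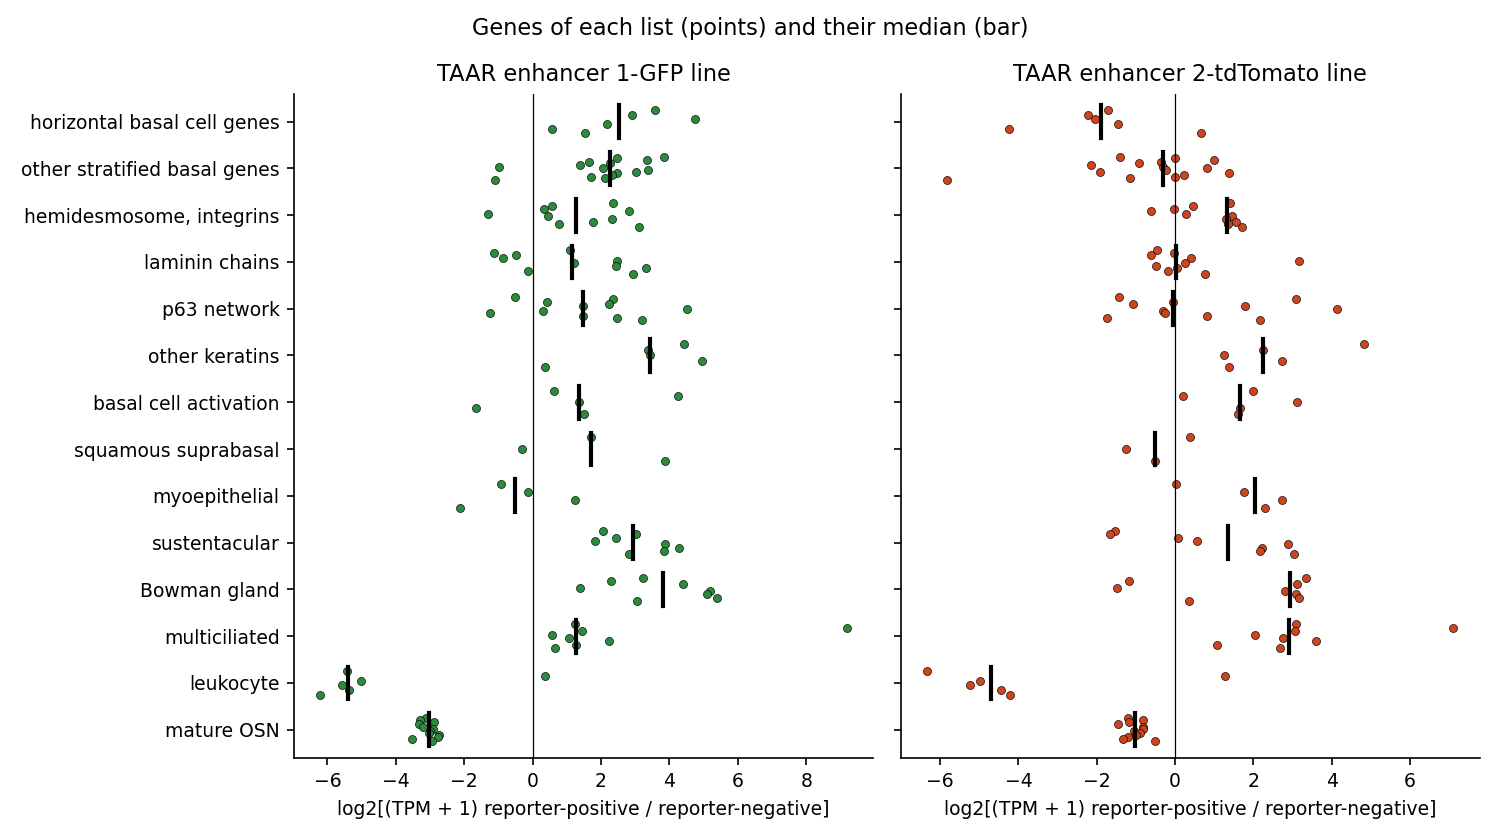
Log2 change in the GFP line (left) and the tdTomato line (right) for the genes of 14 lists that reached 1 TPM, with 1 point for each gene and a bar at the median. The median of the horizontal basal cell genes is 2.54 on the left and -1.88 on the right, while the list of other keratins has medians of 3.44 and 2.26.

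Markers of other nasal cells moved in the same libraries. Sustentacular cell markers were at least 2-fold higher in GFP-positive cells for 8 of 8 genes, and in tdTomato-positive cells 4 were higher and 2 lower. Without *Cbr2*, which had the highest TPM of the list, the other 7 summed to 508.3 and 3594 TPM in the GFP line and to 824.5 and 1595 TPM in the tdTomato line. Bowman gland markers were higher for 8 of 8 genes in GFP-positive cells, and 5 were higher and 2 lower in tdTomato-positive cells. The secretory genes *Bpifb9a* and *Bpifb9b* made up most of their TPM in GFP-positive cells, at 13474 and 55039 TPM. The other 6 summed to 44.6 and 625.3 TPM in the GFP line and to 194.4 and 486.6 TPM in the tdTomato line. Multiciliated cell markers were higher for 6 of 8 genes in GFP-positive and 8 of 8 in tdTomato-positive cells. Markers of gland myoepithelial cells, which also make *Krt5* and *Krt14*, summed to 9.01, 5.02, 6.44, and 21.6 TPM. Among them, *Acta2* was at 2.44, 0.817, 5.80, and 5.93 TPM, and *Mylk* at 0.816, 3.27, 0.421, and 8.41 TPM. *Oxtr* was listed at 0 in every library except GFP-positive cells, where it was at 0.145 TPM. Suprabasal squamous markers summed to 2.85, 19.5, 14.3, and 8.18 TPM. *Krt10*, a keratin of differentiating layers, was at 2.83, 2.08, 7.07, and 2.40 TPM, with log2 changes of -0.31 and -1.25. *Krt4*, another suprabasal keratin, was at 0, 13.6, 5.90, and 3.82 TPM, with log2 changes of 3.87 and -0.52. *Krt1* was at 0, 2.29, 1.26, and 1.96 TPM, and *Krt13* was listed at 0 in all 4 libraries. A list of 12 secretory genes of nasal glands was written after the values were seen, so its counts describe that choice. Of these genes, 8 were at least 2-fold higher in GFP-positive and lower in tdTomato-positive cells, beside 1.34% of all genes. Among them *Obp1a*, an odorant-binding protein, was at 503.3, 32783, 1518, and 30.1 TPM. The part of these cells in the values of the members was not tested.

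The genes whose profiles were most like the median profile of the members were found by Euclidean distance between log2(TPM + 1) values centered on each gene's mean over the 4 libraries, among genes that reached 10 TPM in at least 1 library. The 10 nearest included *Abi3bp*, *Msln*, *Cyp1a2*, *Cyp2g1*, *Upk1b*, *Car12*, *Sox10*, *Gldn*, and *Trim29*, at distances from 0.19 to 0.63. The members themselves lay at distances from 0.47 (*Krt14*) to 2.19 (*Icam1*) from their own median. *Abi3bp*, which encodes a matrix protein, was at 3.61, 29.8, 7.54, and 1.26 TPM. *Msln*, the surface protein mesothelin, was at 23.8, 177.4, 54.5, and 14.5 TPM. *Cyp2g1*, an olfactory cytochrome P450 of supporting cells and glands, was at 199.6, 838.1, 248.2, and 84.9 TPM. *Trim29*, a gene of basal keratinocytes, was at 2.04, 21.6, 9.07, and 1.09 TPM. With a minimum of 50 TPM, only *Msln*, *Cyp1a2*, and *Cyp2g1* of the 10 could be chosen, and all 3 were among the nearest.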

How the data were processed

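RNA-seq libraries of FACS-sorted MOE cells were available for 4 groups, with 1 library each. The authors deposited TPM values for 24421 gene symbols, and each library sums to 1000000. The submitters' processing notes name Trimmomatic 0.36, Salmon 1.4.0, and mm10, whereas the published methods name Hisat2 and Cufflinks for RNA-seq. The gene annotation and strand setting are not given in the sources used here. The published methods give Smart-seq2 libraries, and the labels give other kits.

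TPM values were used as deposited. Log2 ratios used a pseudocount of 1, and calls used 2-fold among genes that reached 1 TPM in at least 1 library. TPM gives no depth, so no intervals or floors were calculated, and no test was possible with 1 library per group. The members and lists were chosen with earlier results of these data known. Named genes were the members, genes of 20 other lists that passed 2-fold with opposite signs, the 4 further genes of each list with the highest TPM, and the 10 nearest profiles. *Itgb4*, *Col17a1*, *Notch1*, *Ptprc*, *Mki67*, *Kit*, *Lgr5*, *Oxtr*, *Krt13*, *Krt16*, *Krt6a*, and the nasal gland list fall outside this rule and were chosen after their values were seen. Some genes that met the rule are not reported here. Alternatives were pseudocounts of 0.1 and 10, other minimum values, 4-fold calls, and 4 scalings. Median-ratio scaling used 11943 genes, and 24 genes were removed in the rescaling without the highest genes. Scripts were tested on simulated data. Positions, of which 23376 symbols matched, were from GENCODE M21. Python 3.11.15, NumPy 2.4.6, pandas 2.3.3, and Matplotlib 3.10.9 were used.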

Additional observations from a re-analysis of the deposited data

Results flagged for a closer look

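The lines differed in direction for 5 members, with 1 library in each group, and these differences were not tested. The log2 change in the GFP line minus that in the tdTomato line was 5.30 for *Krt5*, 5.11 for *Krt14*, 6.79 for *Krt15*, 3.62 for *Trp63*, and 4.81 for *Icam1*.

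Genes in the other lists also had changes past 2-fold with opposite signs, and these differences were not tested either. Higher in GFP-positive and lower in tdTomato-positive cells were *Krt17* (difference 5.23), *Pkp1* (3.51), *Ngfr* (4.95), *Serpinb5* (3.25), *Ovol1* (3.30), *Tfap2c* (4.19), *Cyp2g1* (3.60), *Cyp1a2* (4.69), *Sox10* (3.47), and *Muc2* (2.86). Lower in GFP-positive and higher in tdTomato-positive cells were *Sbsn* (-3.30), *Tagln* (-4.43), and *Fabp7* (-6.23).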

How the results depend on the processing

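No paired analysis was possible because there is a single library for every group, without a test. A log2 value is taken as moved when it changed by more than 0.58 (1.5-fold). The median change of the 6 members in the GFP line was 2.54 as deposited, 3.37 with median-ratio scaling, 1.75 with a pseudocount of 10, and 5.41 with scaling to mature OSN markers. Scaling to simple-epithelial keratins, chosen after seeing the data, turned it to -1.31, and turned *Krt5* (-0.44), *Krt14* (-1.11), *Trp63* (-1.50), *Itga6* (-2.36), and *Icam1* (-3.38) below 0 in this line. In the tdTomato line the median was -1.88 as deposited, -1.20 with a pseudocount of 10, -0.90 with OSN markers, and -4.34 with keratins. With the keratins, 0 members passed 2-fold higher in GFP-positive cells, and 0 passed with opposite signs, compared with 5 and 4, and of all genes 2.81% and 0.692% did so under that scaling. With OSN markers or at 4-fold, 3 members were called lower in tdTomato-positive cells in place of 5, and at 4-fold 2 passed with opposite signs. Of all genes, 11.8% with OSN markers and 10.6% at 4-fold were lower in tdTomato-positive cells, and 0.396% passed 4-fold with opposite signs. The background shares stayed within 1.5 times at both other minimum values. The 226 genes with opposite signs were 381 with a pseudocount of 0.1, 39 with 10, 623 with OSN markers, and 117 with keratins. TPM keeps no depth, so the number of reads behind each value is unknown.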

Other observations

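Precursors of the neuronal lineage, which horizontal basal cells can restock, were described by 9 genes of globose basal cells and neuronal precursors. Of these, 2 were at least 2-fold higher and 5 lower in GFP-positive cells, and 7 were lower in tdTomato-positive cells. The shares of all genes were 13.5%, 43.1%, and 21.6% in the same order. *Kit* and *Lgr5* changed in the direction of the basal keratins, by 1.23 and 0.96 in the GFP line and by -0.47 and -1.55 in the tdTomato line (log2). *Mki67*, a gene of dividing cells, was at 30.5 and 7.90 TPM in the GFP line and at 23.4 and 1.56 TPM in the tdTomato line. *Neurod1* was lower in both lines, with log2 changes of -3.48 and -2.80.

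Genes of the lamina propria gave mixed values. Of 6 fibroblast genes, 3 were higher and 2 lower in GFP-positive cells, and none passed 2-fold in tdTomato-positive cells. *Col1a1* was at 6.31, 30.2, 1.12, and 0.604 TPM, while *Col3a1* was at 8.86, 0.489, and 0.0615 TPM and was listed at 0 in tdTomato-positive cells. Of 6 markers of olfactory ensheathing cells, *Fabp7* was at 29.5, 0.0511, 8.26, and 23.0 TPM, lowest in the library in which the basal keratins were highest. The immature OSN markers, 5 of 5, were lower in GFP-positive cells, and 4 of 5 passed 2-fold lower in tdTomato-positive cells.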
